A study of Mus musculus with 12 samples.

Results

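The 40 genes of the endoplasmic reticulum (ER) stress and heat shock responses were examined in the arcuate nucleus (ARC) of female mice by bulk RNA sequencing. The genes were chosen by symbol for their known roles, but with earlier results of these data known, and 40 of 40 were among the 16640 genes measured. They comprised 14 ER chaperones and folding enzymes, 3 genes of ER-associated degradation, 4 stress sensors and transcription factors, 7 genes of the integrated stress response, 10 cytosolic heat shock genes and 2 genes of the mitochondrial chaperonin. All 40 passed the filter on low values (at least 1 in at least 2 libraries), as did 15801 of the 16640 genes.

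The 12 libraries fell into 4 groups. Control females (labelled Ctrl) carried loxP-flanked Esr1, the gene of oestrogen receptor alpha, and were fed chow (n = 3) or a high-fat diet, HFD (n = 2). Mutant females (labelled NkxCre) carried the same floxed Esr1 with a Cre recombinase driven by Nkx2-1, and were fed chow (n = 4) or HFD (n = 3). All animals were 27 weeks old, and HFD lasted 17 weeks. Nkx2-1 is active in the ventral hypothalamus from embryonic life, so the recombination was restricted neither to the ARC nor to adulthood. The labels do not say whether a library came from 1 animal, so p-values measure the spread between these libraries, which may be partly technical. Values are the authors' abundance signal, normalised for gene length and close to the TPM scale (transcripts scaled to a common total), and no read depth can be taken from it.

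Esr1 goes against 1 label. Its signal was 17.8, 7.29 and 19.8 in control chow and 6.05, 3.15, 1.93 and 1.65 in mutant chow, but 10.7, 16.6 and 11.9 in the libraries labelled mutant HFD, beside 15.3 and 22.4 in control HFD. The signal covers the whole gene, so transcripts of a recombined allele count as well. The columns summed to between 922172 and 1254999, the highest being control chow 2, and no 2 libraries were identical. The 10 markers of arcuate neurons summed to between 2186 and 8321 and were above 0 throughout. Control chow 2 held the most pituitary signal (marker sum 6030 against at most 2097 elsewhere). Control HFD 1 had the highest sum of 5 choroid plexus markers (2180 against at most 77.7) and the least arcuate signal. Of that sum 2112 was Ttr (at most 19.2 elsewhere), and Kl was also highest there (19.2 against at most 8.13), whereas Folr1 (14.7), Clic6 (29.2) and Aqp1 (4.94) were not. In tissue RNA of this kind, fewer cells of a type and less RNA per cell cannot be told apart.

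The ER folds secreted and membrane proteins with the help of chaperones that bind unfolded chains and of enzymes that form disulphide bonds. When unfolded protein accumulates, the sensors Ire1 (gene Ern1), Perk (Eif2ak3) and Atf6 start the unfolded protein response, which raises chaperones and degradation factors through Xbp1 and Atf6, while Perk slows translation and favours Atf4 and its target Ddit3 (Chop). Cytosolic damage instead releases the heat shock factor Hsf1, which drives the inducible Hsp70 genes Hspa1a and Hspa1b and their partner Dnajb1. Neurons of the arcuate nucleus make large amounts of secreted peptides and sense leptin, and ER stress has been studied there in diet-induced obesity.

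These branches read different short promoter sequences, which are shown here because the member groups differ in which of them they hold. RefSeq promoter windows (GRCm38.p6, from 250 bases before to 50 bases after the start) were held for 34 of the 40 genes. Hyou1, Manf, Atf6, Hspa8, Hsp90aa1 and Hsp90ab1 had none. The motifs were picked after the windows had been viewed, and both strands were searched. The ER stress element (ERSE) was searched as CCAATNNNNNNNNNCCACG. It occurred in 7 of the 34 members, all among the 12 ER chaperones and folding enzymes with a window, and in 0.137% of all 27025 genes with windows. The sites are printed with the element in capitals, 5′ to 3′ on the gene's strand.
Hspa5, chr2:34772010-34772058, plus strand: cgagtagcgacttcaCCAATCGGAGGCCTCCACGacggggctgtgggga
Hsp90b1, chr10:86705623-86705671, minus strand: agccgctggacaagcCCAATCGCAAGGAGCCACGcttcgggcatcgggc
Hsp90b1, chr10:86705518-86705566, minus strand: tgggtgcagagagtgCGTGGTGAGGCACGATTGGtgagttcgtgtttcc
Calr, chr8:84847060-84847108, minus strand: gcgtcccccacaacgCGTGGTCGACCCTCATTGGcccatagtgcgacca
Canx, chr11:50325785-50325833, minus strand: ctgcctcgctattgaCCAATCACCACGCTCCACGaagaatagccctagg
Pdia6, chr12:17266476-17266524, plus strand: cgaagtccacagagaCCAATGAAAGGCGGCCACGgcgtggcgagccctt
Dnajc3, chr14:118937812-118937860, plus strand: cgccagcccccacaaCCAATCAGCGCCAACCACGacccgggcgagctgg
Creld2, chr15:88819505-88819553, plus strand: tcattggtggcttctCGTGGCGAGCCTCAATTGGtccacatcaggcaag
Hsp90b1 held 2 copies in opposite orientations, and Calr and Creld2 held theirs in reverse. The related ERSE-II (ATTGGNCCACG), which shares its second part with ERSE, occurred in 2 members, Herpud1 and Dnajb11, and in 0.0444% of all genes.
Herpud1, chr8:94386362-94386402, plus strand: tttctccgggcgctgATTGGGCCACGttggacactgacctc
Dnajb11, chr16:22857837-22857874, plus strand: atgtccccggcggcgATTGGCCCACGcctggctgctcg

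A heat shock element, the sequence bound by Hsf1, was searched as GAANNTTCNNG. It occurred in 5 of the 7 cytosolic heat shock genes with a window (Hspa1a, Hspa1b, Hsph1, Dnaja1 and Hspb1), in both mitochondrial chaperonin genes and in Asns, against 4.56% of all genes. It was not matched in Dnajb1, which says only that these letters are absent from that window. The 150 bases before the starts of Hspa1a and Hspa1b are printed because their near identity bears on how their values can be read. The capitals mark 2 overlapping matches on opposite strands.
Hspa1a, chr17:34972157-34972306, minus strand: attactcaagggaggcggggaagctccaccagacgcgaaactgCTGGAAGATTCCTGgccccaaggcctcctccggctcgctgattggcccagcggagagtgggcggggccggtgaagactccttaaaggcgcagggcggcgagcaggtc
Hspa1b, chr17:34959239-34959388, minus strand: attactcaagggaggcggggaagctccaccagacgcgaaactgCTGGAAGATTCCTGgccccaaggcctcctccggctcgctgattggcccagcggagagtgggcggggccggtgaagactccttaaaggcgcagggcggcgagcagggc
The stretches matched at 149 of 150 bases, and the whole windows at 296 of 300. Their transcripts shared 63.8% (Hspa1a) and 67.5% (Hspa1b) of their 31-base words, so reads may be split between them with error and their sum is given below.

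The element of Atf4 and Ddit3 target genes (CARE, searched as TGATGNAAN) occurred in 4 members, Chac1, Trib3, Asns and Herpud1, against 4.5% of all genes. In Asns it overlapped the heat shock element match. The sites are shown, in capitals, for the 3 genes whose levels are described further below.
Asns, chr6:7693209-7693247, minus strand: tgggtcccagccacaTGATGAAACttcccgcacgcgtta
Chac1, chr2:119351033-119351071, plus strand: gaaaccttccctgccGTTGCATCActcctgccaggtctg
Trib3, chr2:152344031-152344062, minus strand: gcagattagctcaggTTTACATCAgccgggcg

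**Figure D1:**
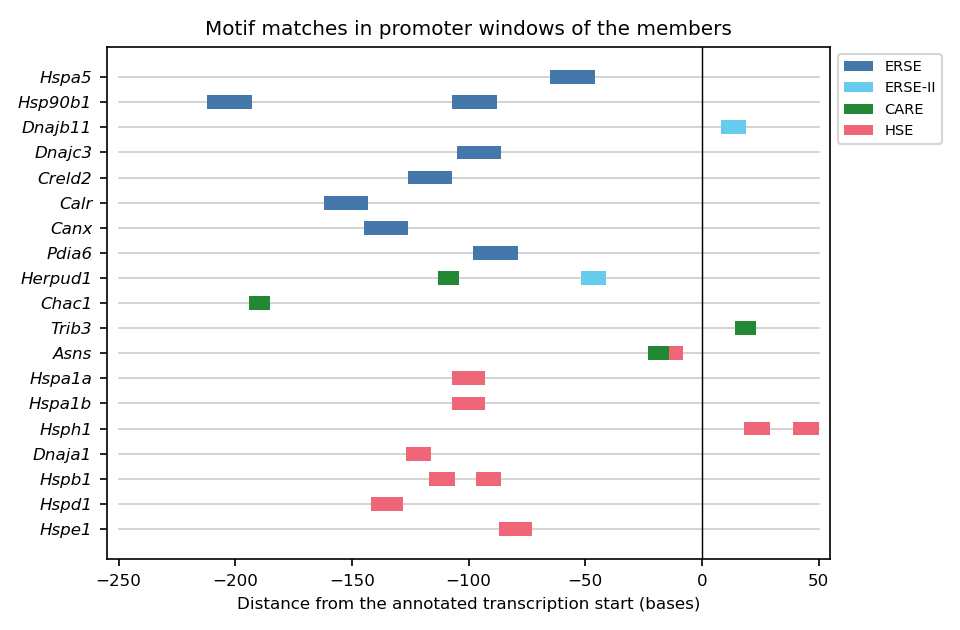
Positions of the ERSE, ERSE-II, heat shock element (HSE) and CARE matches (bars) in the windows (grey lines) of the 19 members that hold any, as bases from the annotated start. ERSE bars lie only on ER chaperone genes, and the heat shock bars of Hspa1a and Hspa1b lie at the same distance from the start.

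Members spanned a wide range of levels. Averaged over the 12 libraries, the signal was highest for the abundant cytosolic chaperones Hspa8 (1703), Hsp90ab1 (1465) and Hsp90aa1 (1013), and lowest for Trib3 (2.62), a pseudokinase induced by Atf4. The median over the members was 72.3, against 17.5 over all genes tested. The ER chaperones ran from 43.7 for Dnajc3 to 415 for Calr, the ER calcium-binding chaperone. The sensors were low at 8.24 for Ern1, 8.70 for Atf6 and 8.86 for Eif2ak3, whereas Xbp1, the transcription factor spliced by Ire1, stood at 114. The inducible Hsp70 genes averaged 16.3 (Hspa1a) and 15.8 (Hspa1b), far under their constitutive relative Hspa8. The median spread within groups was 0.27 (SD of log2 values), against 0.40 over all genes, with extremes of 0.11 for Hsp90ab1 and 0.91 for Trib3.

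**Figure D2:**
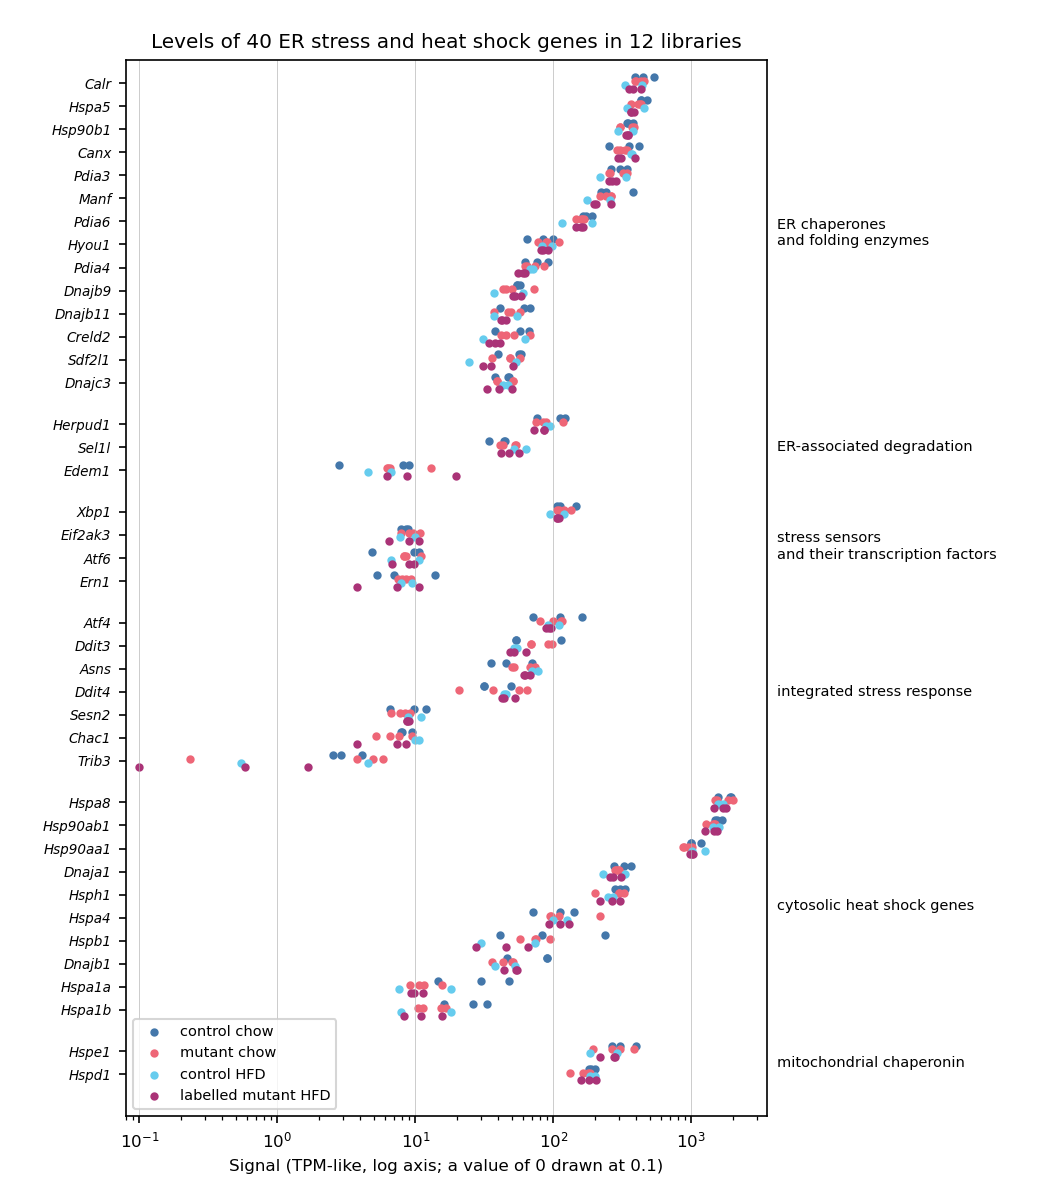
Signal of each member in the 12 libraries on a log axis, grouped by role and coloured by group; Trib3 was listed at 0 in 1 library, drawn at 0.1. Hspa8, Hsp90ab1 and Hsp90aa1 stand at the top and Trib3 at the bottom, and the groups interleave for most genes.

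Across all 6 comparisons, 0 of the 40 members passed an adjusted p-value of 0.05 (limma on log2(signal + 1), Benjamini-Hochberg adjustment over all 15801 genes). The share of all genes that passed was also small, at 0.0190% for genotype on chow, 0.0190% for the diet effect in mutants, 0% for that in controls, 0.00633% for genotype on HFD, and 0% for both the genotype by diet interaction and the diet effect averaged over genotypes. At an unadjusted p under 0.05, 3 members (7.50%) differed by genotype on chow against 4.34% of all genes. The corresponding figures were 1 member (2.50%) against 5.37% for diet in mutants, 5 (12.5%) against 3.54% for diet in controls, 0 against 2.21% for genotype on HFD, 1 (2.50%) against 3.44% for the interaction and 4 (10%) against 5.29% for the averaged diet effect. These are values without multiple-test control, and genotype on chow, diet in controls and the interaction share the control chow libraries.

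The lowest p-values lay with the inducible heat shock genes. On chow, Hspa1a, Hspa1b and Dnajb1 were lower in mutants than in controls, at 38.1%, 53.4% and 60.1% of the control mean, but none passed the adjusted threshold. Hspa1a encodes the stress-inducible Hsp70 itself. Its signal was 30, 47.8 and 14.5 in control chow, 11.5, 15.7, 10.6 and 9.09 in mutant chow, 18.1 and 7.61 in control HFD, and 9.33, 11.4 and 9.75 in the libraries labelled mutant HFD. Control chow 1 and 2 stood above every other library, while control chow 3 lay within the range of the rest, so the chow groups overlapped. The genotype difference on chow was −1.20 ± 0.38 on the log2 scale (SE, limma, adjusted p = 0.982, unadjusted 0.0081).

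Hspa1b, the near-identical neighbour, was highest in the same 2 libraries. It read 26.2, 33.0 and 16.0 in control chow, 16.6, 15.3, 10.4 and 11.3 in mutant chow, 18.1 and 7.92 in control HFD, and 10.9, 8.33 and 15.6 in the libraries labelled mutant HFD. The difference on chow was −0.83 ± 0.34 (SE, limma, adjusted p = 0.982). Summed, the pair gave means (± SD) of 55.9 ± 25.1 over the 3 control chow libraries and 25.1 ± 5.25 over the 4 of mutant chow, a level 44.9% of control. In control HFD the summed signal was 25.8 ± 14.6 (n = 2), 46.3% of control chow, and for the 3 libraries labelled mutant HFD it was 21.8 ± 3.08.

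Dnajb1, the Hsp40 partner that hands clients to Hsp70, showed the same 2 high libraries. Its signal was 89.5, 89.5 and 46 in control chow, 50.7, 43.0, 36.1 and 50.5 in mutant chow, 52.9 and 37.5 in control HFD, and 43.9, 54.4 and 53.7 in the libraries labelled mutant HFD. The genotype difference on chow was −0.67 ± 0.24 (SE, limma, adjusted p = 0.982). Control chow 3 again lay inside the mutant range, and for 0 of the 40 members were the chow groups free of overlap, against 4.51% of all genes.

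Control chow 1 and 2 both weighed on these values. Without control chow 2, the library with the most pituitary signal, the chow differences were −0.81 for Hspa1a, −0.61 for Hspa1b and −0.51 for Dnajb1. Their unadjusted p-values (limma) became 0.055, 0.133 and 0.0795. The count of members at an unadjusted p under 0.05 fell from 3 to 1, then Ddit3, which was higher in mutants. Without control chow 1 (pituitary marker sum 556) Dnajb1 was −0.51 as well, and only Hspa1a of the 3 kept an unadjusted p under 0.05 (limma). Without control chow 3 the differences grew to −1.64, −1.11 and −0.99. Immediate early genes are induced by neuronal activity and by handling. They summed to 457, 249 and 142 in control chow and to 265, 133, 137 and 292 in mutant chow. Among them Arc read 28.2, 20.7 and 12.6 in control chow and at most 11.4 in mutant chow (−1.40, limma, adjusted p = 0.982). Fosb read 39.4, 12.9 and 13.4 against at most 11.9 (−1.78, limma, adjusted p = 0.982). The chow groups did not overlap for either gene, as for 4.51% of all genes, whereas the sums of all 8 overlapped. Mutant chow 1 and 4, at 265 and 292, summed above control chow 2 and 3, so the rest of the 8 together were higher there. Arc and Fosb were named after their values were seen. The part of the immediate early genes and that of the pituitary signal in the heat shock values were not tested.

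The other heat shock genes of the pathway were 29 further cochaperones, small heat shock proteins and Hsf genes. For genotype on chow 3 of the 29 had an unadjusted p under 0.05 (limma), all lower in mutants, against 4.34% of all genes. Past the adjusted threshold there were 0. Of the 29, 12 lay above 0 and the median was −0.09. The 3 were Bag3, a cochaperone that steers clients to autophagy, and the Hsp40 genes Dnaja4 and Dnajb5; Bag3 and Dnajb5 are named after their values were seen. Dnaja4, with the smallest p of the list, read 39.4, 63.6 and 42.1 in control chow and 28.2, 37.5, 19.8 and 31.8 in mutant chow. Bag3 read 21.9, 22.7 and 25.3 against 12.4, 14.9, 19.3 and 12.6, and Dnajb5 read 101, 85.3 and 75.2 against 59.1, 60.1, 42.1 and 68.6. The log2 differences were −0.71, −0.64 and −0.60 (limma, adjusted p = 0.982 for each). Without control chow 2 they were −0.50, −0.66 and −0.61 (limma, unadjusted p = 0.0633, 0.0363 and 0.0671). Without control chow 1 Dnajb5 had an unadjusted p of 0.126 (limma), while Dnaja4 and Bag3 stayed under 0.05. For the diet effects, 2 other genes of the list are given for their small p-values. The small heat shock protein gene Hspb6 was higher on HFD in controls by 0.95 (limma, unadjusted p = 0.0426, adjusted p = 0.998), and its relative Cryab differed by −0.96 in mutants (limma, unadjusted p = 0.0244, adjusted p = 0.864). Their interactions were −1.42 and −1.39 (limma, adjusted p = 0.999 for both).

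**Figure D3:**
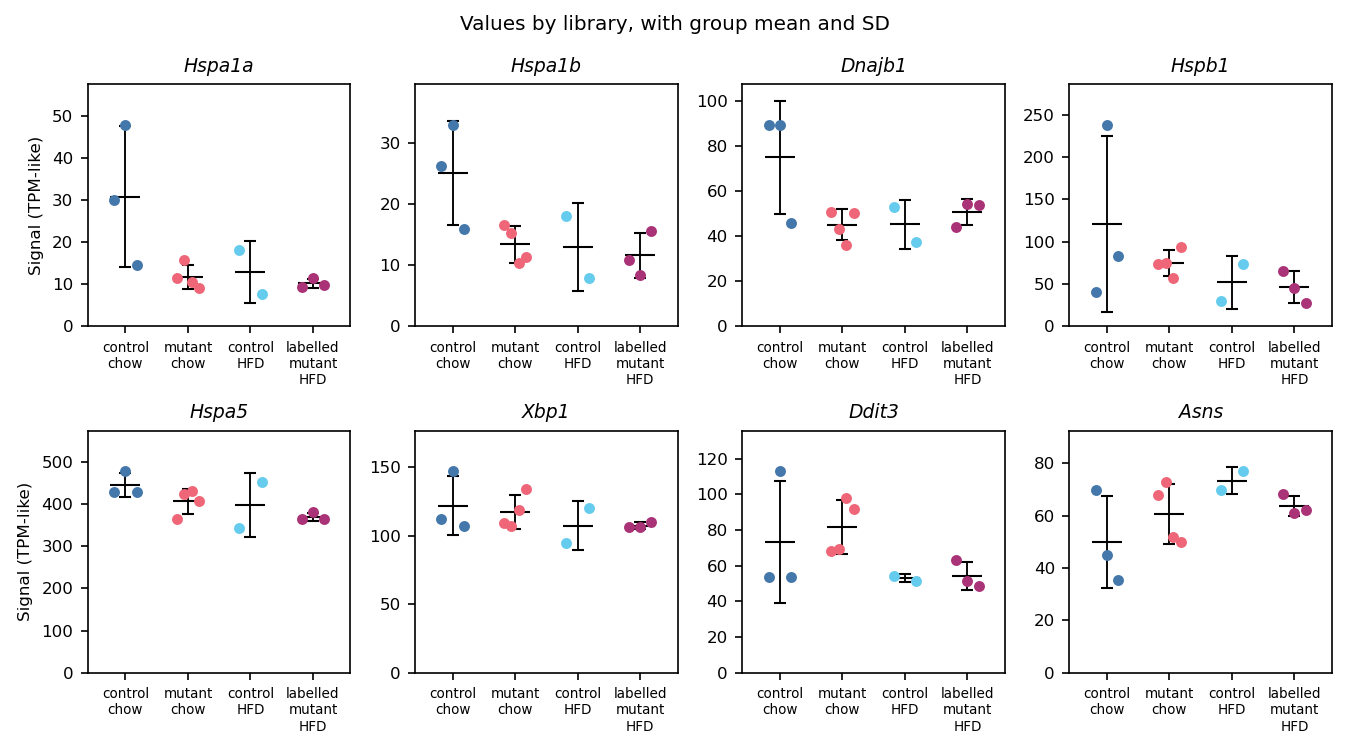
Signal in each library (points) with the group mean and SD (bars) for 8 members, axes from 0. For Hspa1a, Hspa1b and Dnajb1, control chow 1 and 2 lie above the other libraries and control chow 3 lies among them.

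The abundant cytosolic chaperones were steadier. Hspa8, which folds new chains and uncoats vesicles, read 1570, 1900 and 1942 in control chow, 1532, 1492, 2012 and 1833 in mutant chow, 1551 and 1684 in control HFD, and 1780, 1690 and 1450 in the libraries labelled mutant HFD. Hsp90aa1, the inducible cytosolic Hsp90, read 999, 992 and 1173 in control chow, 886, 863, 1018 and 952 in mutant chow, 1258 and 1007 in control HFD, and 1002, 984 and 1021 in the libraries labelled mutant HFD. For both genes all group ranges overlapped on chow, and the log2 difference between genotypes on chow was −0.08 ± 0.18 for Hspa8 and −0.18 ± 0.15 for Hsp90aa1 (SE, limma, adjusted p = 0.992 and 0.982). Of the 10 cytosolic genes 9 lay below 0 for genotype on chow (median −0.16), or 7 of 10 after quantile normalisation. Without Hspa1a, Hspa1b and Dnajb1 the mean log2 level of the other 7 averaged 8.76 ± 0.15 over the 3 control chow libraries and 8.64 ± 0.07 over the 4 mutant chow libraries (SD).

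The ER chaperones differed little between the genotypes on chow. Hspa5 (BiP), the main ER Hsp70 and regulator of the sensors, read 430, 478 and 428 in control chow, 365, 424, 431 and 408 in mutant chow, 344 and 452 in control HFD, and 365, 381 and 364 in the libraries labelled mutant HFD. Hsp90b1 (Grp94), the ER Hsp90, read 343, 350 and 378, then 306, 302, 382 and 373, then 293 and 378, and finally 346, 349 and 337 in the same group order. The highest library exceeded the lowest 1.39-fold for Hspa5 and 1.3-fold for Hsp90b1, and on chow the groups overlapped for both. For genotype on chow Hspa5 differed by −0.13 (95% interval −0.43 to 0.17) and Hsp90b1 by −0.07 (−0.39 to 0.24), intervals that leave room for differences of either sign. Control chow 2 was the highest library for 7 of the 14 ER chaperones, Hspa5 included, and for 19 of the 40 members, against 16.3% of all genes. Whether the ER chaperones and the heat shock genes differ in their response was not tested.

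Small differences in 1 direction were common among the ER chaperones. Their log2 differences ran from −0.22 for Dnajb11 to 0.15 for Hyou1 for genotype on chow, and, between the diets in controls, from −0.46 for Sdf2l1 to 0.15 for Canx. Dnajb11 and Sdf2l1 assist BiP, and Canx holds new glycoproteins. For genotype on chow 12 of 14 lay below 0 (median −0.09), where 47.8% of all genes did, but the count was 10 of 14 after quantile normalisation and 6 of 14 when every library was rescaled to a sum of 1000000, which moved the median of all genes from 0.01 to 0.10. For the averaged diet effect 12 of 14 lay below 0 (median −0.14, all genes 53.5%), and 10 of 14 after rescaling. With all libraries kept, none of the 14 reached an unadjusted p of 0.05 in any of the 6 comparisons. Control HFD 1, the library with high Ttr, was the lowest of the 12 libraries for 10 of the 14 genes. For diet in controls 11 of 14 lay below 0 (median −0.20), which became 5 of 14 (median 0.08) without control HFD 1 and 2 of 14 (median 0.10) when control chow 2 was left out too. Without control HFD 2 instead the median was −0.47, and Sdf2l1, Creld2 and Pdia6 had an unadjusted p under 0.05. For the averaged diet effect without control HFD 2, 13 of 14 lay below 0 (median −0.27) and 5 had an unadjusted p under 0.05, namely Hspa5, Sdf2l1, Creld2, Manf and Pdia6. Pdia6 was also under it for genotype on HFD and the interaction in that fit. Without control HFD 1, 8 of 14 lay below 0 for the averaged diet effect (median −0.07), and without control chow 2 as well the median was −0.01.

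Creld2, an ER disulphide isomerase induced by ER stress, had the smallest p of the ER chaperones for diet in mutants. It read 41.6, 45.5, 67.7 and 51.8 in mutant chow and 40.7, 34.4 and 37.9 in the libraries labelled mutant HFD, which did not overlap. The controls read 37.8, 66.8 and 57.6 on chow and 30.9 and 62.0 on HFD. The diet difference in mutants was −0.42 ± 0.26 (SE, limma, adjusted p = 0.924).

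Among the other 29 ER folding and degradation genes, 0 passed the adjusted threshold in any comparison. Creb3l1, an ER-bound transcription factor, had the smallest p for genotype on chow and was lower in mutants (19.6 ± 5.45 over 3 control libraries against 10.7 ± 3 over 4 mutant libraries, SD; log2 difference −0.82, limma, adjusted p = 0.982). Sec61b, a subunit of the ER translocon, had the smallest p for diet in controls (−0.70, limma, adjusted p = 0.998). For diet in mutants the smallest p lay with Wfs1, an ER membrane protein, at 0.29 (limma, adjusted p = 0.916).

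**Figure D4:**
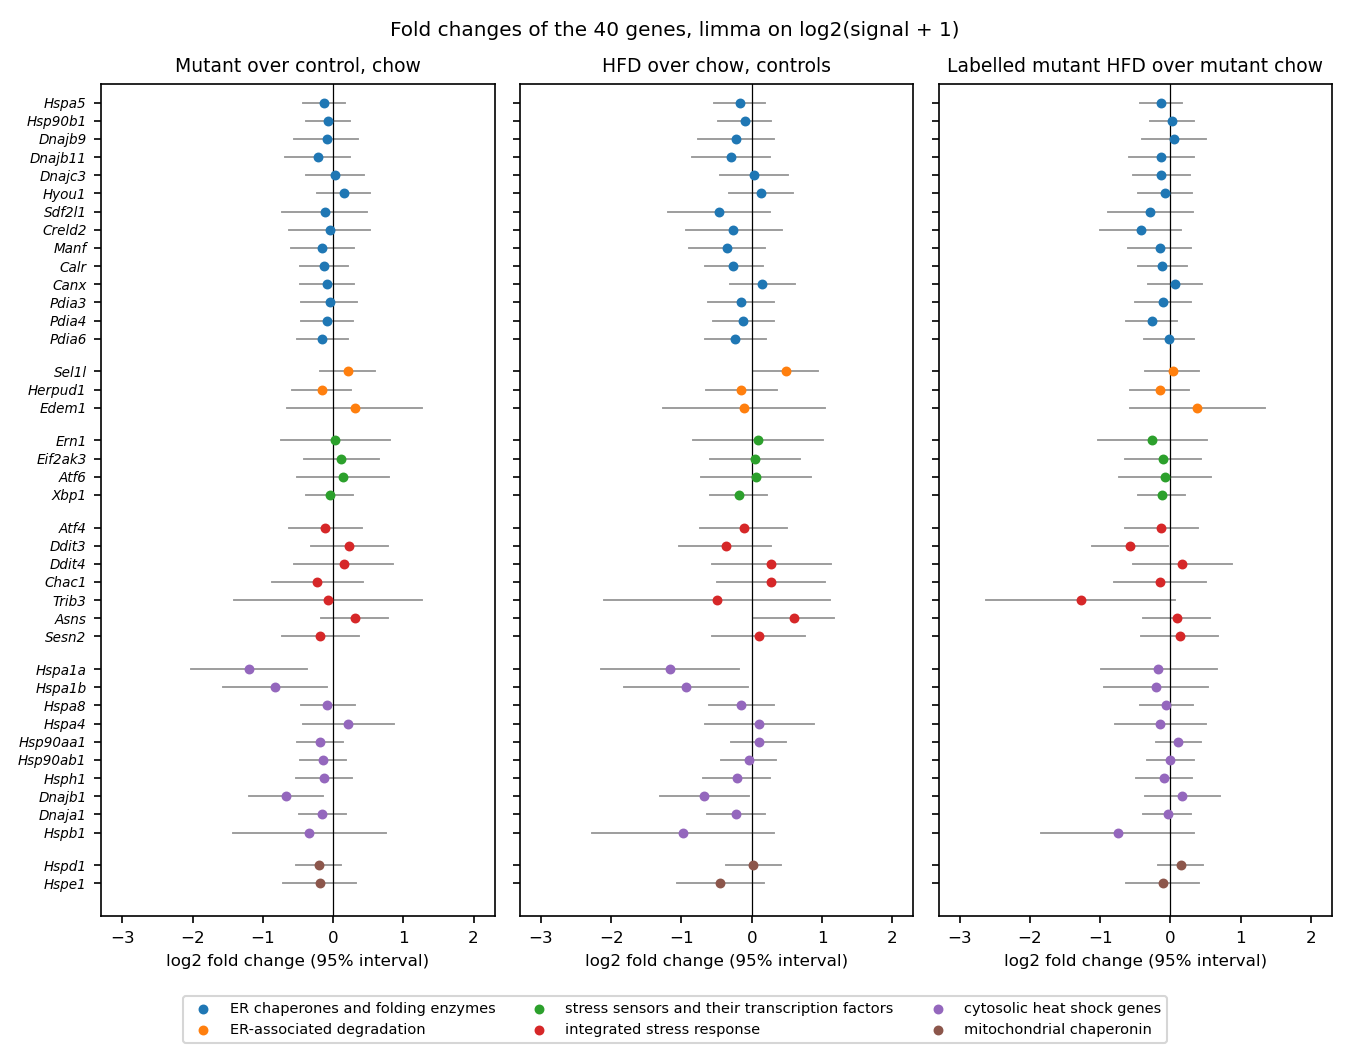
The log2 fold change (points, coloured by role) of each member with its 95% interval (bars) for genotype on chow, diet in controls and diet in mutants. Hspa1a, Hspa1b and Dnajb1 lie below 0 in the first 2 comparisons and near 0 in the last, and all 14 ER chaperones lie between −0.22 and 0.15 on chow.

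The diet effect in controls rests on 3 chow and 2 HFD libraries. Hspa1a was lower on HFD by −1.16 ± 0.45, Hspa1b by −0.94 ± 0.40 and Dnajb1 by −0.68 ± 0.29 (log2, SE, limma, adjusted p = 0.998 for each), and all 3 overlapped between the diets. In mutants the same genes differed by −0.17, −0.21 and 0.17. The interaction, which tests whether the diet effects of the genotypes differ, was 0.85 ± 0.38 for Dnajb1 (SE, limma, adjusted p = 0.999, unadjusted 0.0452), the 1 member under an unadjusted 0.05, and 0.99 for Hspa1a (limma, adjusted p = 0.999). The interactions of Hspb6 and Cryab, given above, had the opposite sign. Leaving out control chow 2 took the count of members at an unadjusted p under 0.05 to 0, from 5 for diet in controls and 1 for the interaction. Leaving out control HFD 2 instead took the differences in controls to −0.59 for Hspa1a, −0.39 for Hspa1b and −0.43 for Dnajb1, and the interaction of Hspa1a to 0.42.

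Of the 40 members, 4 (10%) did not overlap between diets in controls, against 14.1% of all genes, and they were Sel1l, Asns and Chac1, higher on HFD, and Hsph1, lower. Sel1l holds the ubiquitin ligase complex of ER-associated degradation. It read 43.7, 34.3 and 44.8 in control chow, 40.9, 53.4, 52.7 and 42.8 in mutant chow, 63.5 and 51.7 in control HFD, and 41.6, 56 and 47.5 in the libraries labelled mutant HFD. Its diet difference was 0.49 ± 0.21 in controls (SE, limma, adjusted p = 0.998), and the interaction was −0.46. Asns, asparagine synthetase and an Atf4 target, read 69.6, 45.1 and 35.5 in control chow, 69.8 and 76.9 in control HFD, 67.7, 73.0, 51.7 and 50 in mutant chow, and 68.1, 60.8 and 62.0 in the libraries labelled mutant HFD. The margin in controls was small, since control chow 1 at 69.6 lay just under control HFD 1 at 69.8. Its difference was 0.60 ± 0.26 (SE, limma, adjusted p = 0.998).

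In mutants 2 members (5%) did not overlap between diets, against 7.99% of all genes, and both, Creld2 and Ddit3, were lower in the libraries labelled mutant HFD. Ddit3, the transcription factor Chop that promotes cell death under lasting ER stress, read 53.6, 113 and 53.8 in control chow, 68.3, 69.3, 97.8 and 92.1 in mutant chow, 54.5 and 51.6 in control HFD, and 63.2, 51.4 and 48.4 in the libraries labelled mutant HFD. The diet difference in mutants was −0.57 ± 0.25 (SE, limma, adjusted p = 0.916, unadjusted 0.0416), a level 66.4% of that on chow. Averaged over genotypes it was −0.47 ± 0.20 (SE, limma, adjusted p = 0.886, unadjusted 0.0328), the smallest p of any member in that comparison, and −0.30 without control chow 2. Since Esr1 in the libraries labelled mutant HFD goes against their label, whether the difference belongs to recombined tissue cannot be told apart here.

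For Atf4, the upstream factor of Ddit3, the diet estimates were smaller, but the genes were not tested against each other. Atf4 read 111, 162 and 70.6 in control chow, 115, 99.2, 79.8 and 113 in mutant chow, 91.5 and 110 in control HFD, and 95.3, 87.9 and 93.3 in the libraries labelled mutant HFD. All neighbouring groups overlapped, and the averaged diet difference was −0.12 (limma, adjusted p = 0.947), or 0.02 without control chow 2. Its 95% interval with all libraries, −0.52 to 0.28, includes the −0.47 of Ddit3. Atf4 is controlled largely by translation, which these RNA levels do not measure. Xbp1 read 112, 147 and 107 in control chow, 109, 107, 119 and 134 in mutant chow, 94.7 and 120 in control HFD, and 106, 106 and 110 in the libraries labelled mutant HFD. Its averaged diet difference was −0.15 ± 0.12 (SE, limma, adjusted p = 0.89), and the spliced form is not separated in these values.

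For the sensors themselves the log2 diet differences in mutants ran from −0.26 for Ern1 to −0.08 for Atf6. Their 95% intervals, −1.03 to 0.52 and −0.73 to 0.58, leave room for sizeable differences of either sign. None of the 4 genes of that group reached an unadjusted p of 0.05 (limma) in any comparison. Trib3 was the most variable member. It read 2.53, 2.90 and 4.07 in control chow, 3.76, 0.231, 5.78 and 4.93 in mutant chow, 0.548 and 4.50 in control HFD, and 1.66 and 0.587 in the libraries labelled mutant HFD, where the third was listed at 0. The diet difference in mutants was −1.28 ± 0.62 (SE, limma, adjusted p = 0.916), at levels where the pseudocount of 1 shrinks the difference. Of the other 27 integrated stress response genes 0 passed the adjusted threshold. The smallest p among them was that of Cth, a cysteine-making enzyme, for genotype on chow and between the diets in mutants (0.99 and −1.57, limma, adjusted p = 0.982 and 0.872). Cth was low, at 2.29, 8.08 and 1.25 in control chow and 6.48, 5.90, 9.57 and 6.70 in mutant chow. In the libraries labelled mutant HFD it read 5.93, 1.90 and 0, the 0 being in the same library as for Trib3. For diet in controls the smallest p was that of Cebpb (−0.67, limma, adjusted p = 0.998). For the averaged diet effect it was that of Atf3, a stress-induced transcription factor (−0.92, limma, adjusted p = 0.854).

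Between the genotypes on HFD, 4 members (10%) did not overlap, all lower in the libraries labelled mutant HFD, against 15.7% of all genes: Pdia4, Herpud1, Chac1 and Asns. Chac1, a glutathione-degrading enzyme induced through Atf4 and Ddit3, had the smallest p of the members. It read 9.47, 7.88 and 7.98 in control chow, 7.60, 9.50, 6.55 and 5.14 in mutant chow, 10.7 and 10 in control HFD, and 8.54, 7.33 and 3.80 in the libraries labelled mutant HFD. The difference on HFD was −0.65 ± 0.36 (SE, limma, adjusted p = 1), and −0.35 without the library at 3.80. Edem1, which helps to direct misfolded glycoproteins to degradation, read 8.10, 2.79 and 8.94 in control chow, 6.30, 6.60, 6.22 and 13 in mutant chow, 4.51 and 6.63 in control HFD, and 8.69, 6.19 and 19.6 in the libraries labelled mutant HFD. Its difference on HFD was 0.80 ± 0.53 (SE, limma, adjusted p = 1), and 0.36 without the library at 19.6.

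Hspb1 (Hsp27), a small heat shock protein that glia and vessels make as well, had 1 extreme library. It read 40.7, 238 and 83.0 in control chow, 73.0, 75.0, 57.4 and 93.7 in mutant chow, 29.8 and 73.7 in control HFD, and 65.5, 45.1 and 27.7 in the libraries labelled mutant HFD. The value of 238 was again in control chow 2. The averaged diet difference was −0.86 ± 0.39 (SE, limma, adjusted p = 0.886), −0.53 without that library and −0.21 without control HFD 1 as well. The 4 members at an unadjusted p under 0.05 for the averaged diet effect, Ddit3, Hspa1a, Hspa1b and Hspb1, became 0 without control chow 2 and 2 (Hspa1a and Hspa1b) without control HFD 1. Without control HFD 2 there were 7, of which Hspb1 was the 1 shared with those 4, and the others were Hspa5, Sdf2l1, Creld2, Manf, Pdia6 and Trib3.

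The mitochondrial chaperonin genes Hspd1 (Hsp60) and Hspe1 (Hsp10) are divergent neighbours that share 112 annotated bases, and whether strand was used in counting is not given in the sources used here. Hspd1 ran from 132 to 204 and Hspe1 from 185 to 394. Neither reached an unadjusted p of 0.05 in any comparison. For genotype on chow their differences were −0.20 ± 0.15 and −0.19 ± 0.24 (log2, SE, limma, adjusted p = 0.982 and 0.988).

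Set against each other, the mean log2 level of the ER chaperones minus that of the cytosolic heat shock genes averaged −0.59 ± 0.19 (SD) over the 3 control chow libraries. It was −0.33 ± 0.12 for the 4 mutant chow libraries, −0.34 ± 0.49 for the 2 control HFD libraries and −0.33 ± 0.07 for the 3 labelled mutant HFD. The control chow value was lower than that of mutant chow by 0.27. For genotype on chow the ER mean differed by −0.08 and the cytosolic mean by −0.35. Without Hspa1a, Hspa1b and Dnajb1 the cytosolic mean differed by −0.11, close to the ER mean, so the contrast came mostly from these 3 genes. The control HFD mean rests on −0.69 in control HFD 1 and 0.01 in control HFD 2, one on either side of the control chow mean, so its place in the order turns on 1 library. In mutants the diet difference of this contrast was 0.00. The cytosolic mean alone was 7.63, 7.93 and 7.53 in control chow. It lay between 7.17 and 7.39 in the other 9 libraries, so control chow stood above the rest. With Hspa1a, Hspa1b and Dnajb1 left out, control chow 1 (8.58) moved inside the range of the other groups. Control chow 2 (8.87) and 3 (8.82) still stood above those groups, which reached at most 8.72. The ER mean ran from 6.70 in control HFD 1 to 7.20 in control chow 2, with group means (± SD) of 7.10 ± 0.12 for control chow, 7.02 ± 0.11 for mutant chow, 6.94 ± 0.33 for control HFD and 6.90 ± 0.04 for the libraries labelled mutant HFD. The 2 control HFD libraries lay near the opposite ends of the ER range, at 6.70 and 7.17.

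**Figure D5:**
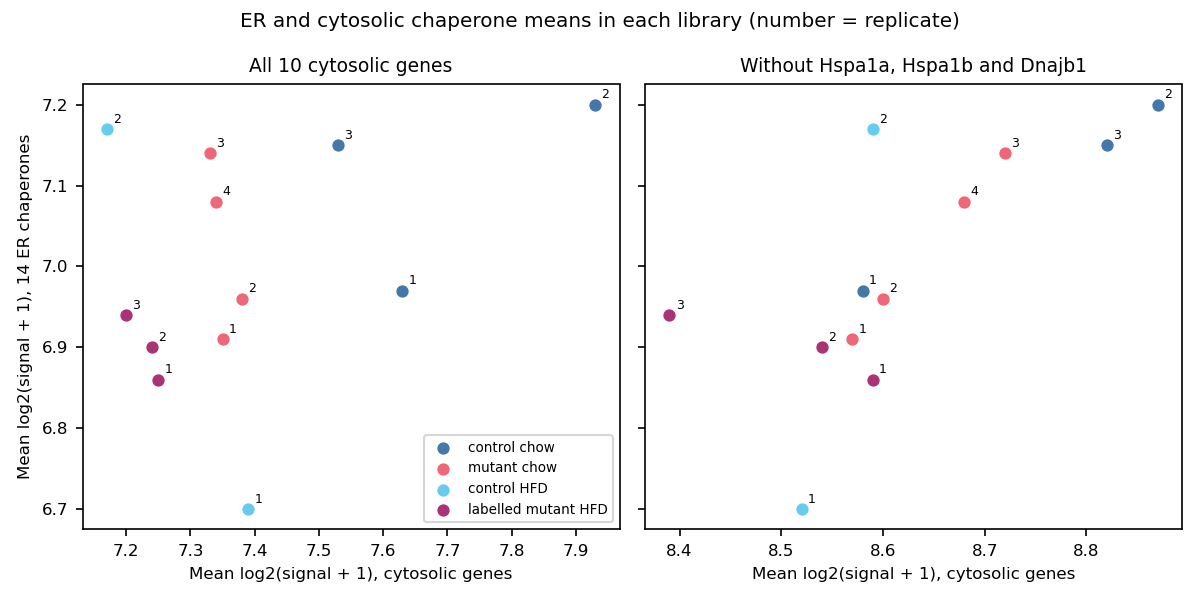
Mean log2(signal + 1) of the 14 ER chaperones against that of the cytosolic heat shock genes in each library, with all 10 cytosolic genes (left) and without Hspa1a, Hspa1b and Dnajb1 (right). On the left the 3 control chow libraries lie at 7.53 or above on the cytosolic axis and all others at 7.39 or below. On the right control chow 1 lies among the other groups, while control chow 2 and 3 stay above them.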

How the data were processed

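The 12 ARC libraries, all from females, were quantified by the authors, who used Kallisto on the mouse transcriptome (mm10) and Sleuth for their own tests. Software versions, annotation and use of strand are not given in the sources used here. The deposited values are an abundance signal per gene, near TPM in scale. Reads could not be recovered from it, so depth is unknown and the abundance branch of the design, limma, was used. Symbols and positions came from GENCODE M21 (GRCm38), with 16635 of 16640 genes matched and 5 unmatched.

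Values were taken as log2(signal + 1), and genes with a signal of at least 1 in at least 2 libraries were kept. In limma 3.58.1 (R 4.3.3), with trend, 1 mean per group was estimated over all 12 libraries. Two-sided p-values received the Benjamini-Hochberg adjustment over the 15801 genes, at 0.05. The 6 comparisons were genotype on each diet, diet in each genotype, their interaction and the averaged diet effect. The fit was tested on simulated data. Fold changes of low genes are shrunk by the pseudocount. Replicates are numbered in the order of deposition.

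The members and lists were chosen with earlier results of these data known. Values in every library are given for a set of 10 members and for the 3 with the smallest p in each comparison, and other pathway genes by counts and the smallest p of their list. Asns, Bag3, Dnajb5, Arc and Fosb were named after their values were seen. Promoter motifs were searched in RefSeq windows (GRCm38.p6). Alternatives were 2 other scalings, other filters, a pseudocount of 0.1, no trend, array weights, only the groups compared, and leaving out each library. Leaving out control chow 2 and control HFD 1 together was chosen after seeing the data.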

Additional observations from a re-analysis of the deposited data

Results flagged for a closer look

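In the mutant chow group, the only group with at least 4 libraries, 3 of 42 measures had 1 library far from the others, with a gap to its neighbour, as a share of the group's range, above Dixon's critical value. About 1 group in 20 is expected to show this by chance. Edem1 was 13 in mutant chow 4 and 6.22, 6.30 and 6.60 in the other libraries (gap 0.943). Atf6 was 11 in mutant chow 4, with 8.30, 8.30 and 8.50 in the rest (gap 0.926). Hspa4, a cytosolic Hsp70 relative that exchanges nucleotide on Hsp70, was 218 in mutant chow 3, with 95.2, 96.5 and 109 in the rest (gap 0.890). Mutant chow 3 also had the most genes listed at 0 (1768 against at most 1019 elsewhere).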

How the results depend on the processing

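No member passed the adjusted threshold (limma) in any of the 6 comparisons under any alternative run, beside 3, 1, 5, 0, 1 and 4 members at an unadjusted p under 0.05 as reported (genotype on chow, diet in mutants, diet in controls, genotype on HFD, interaction, averaged diet). Over the alternatives these counts ran from 1 to 3, 0 to 2, 0 to 6, 0 to 1, 0 to 3 and 0 to 7. Single members were followed under the alternatives in 26 pairs of member and comparison, not for every member in every comparison. The pairs were the members with the smallest p in each comparison and, for the averaged diet effect, a fixed set. Members with the smallest p are less likely to reverse. Of the 531 values of these pairs, 524 kept their direction and 7 reversed. The reversals were in the averaged diet effect, all from values near 0: Hsp90b1 (−0.04) became 0.02 with rescaled columns, 0.05 without control HFD 1 (range without 1 library −0.13 to 0.05) and 0.05 without both extreme control libraries, Atf4 (−0.12) became 0.02 without control chow 2 (range without 1 library −0.27 to 0.02) and 0.09 without both, Xbp1 (−0.15) became 0.00 without both, and Hspa8 (−0.11) became 0.01 after quantile normalisation. Outside these pairs directions changed in other comparisons too. For genotype on chow 12 of 14 ER chaperones lay below 0 as reported, and 6 of 14 with rescaled columns. For diet in controls the median of the 14 went from −0.20 to 0.08 without control HFD 1. The cause of these changes in direction was not tested.

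The ER minus cytosolic difference for diet in controls (0.25) ranged from −0.09 to 0.60 when 1 library was left out and was 0.53 without both control libraries. Its interaction (−0.25) ranged from −0.60 to 0.09 and was −0.53 without both. The ends of both ranges came from leaving out 1 of the 2 control HFD libraries. For genotype on chow it ranged from 0.19 to 0.37.

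No paired analysis was possible because replicates are numbered by deposition order, which ties no animals together. Fits for counts were not run because the files hold none, and fits of only the groups compared apply to neither the interaction nor the averaged diet effect. Control HFD holds 2 libraries, so leaving out 1 assumes that the other varies like the rest. Depth is unknown, so counting error is not given.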
